A study of Mus musculus with 5 samples.

Results

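The proteasome genes measured here encode the subunits of the proteasome, its assembly chaperones, its activators and its inhibitor. They were chosen as the non-control probes whose gene name on the array begins with Psma, Psmb, Psmc, Psmd, Psme, Psmf or Psmg followed by a digit. That rule found 49 genes on 61 probes, of 31896 genes on 39429 probes in all, and the probe with the highest mean signal stood for each gene. One of them, Psmc3ip, is known as a meiotic recombination factor and is no part of the proteasome, so 48 genes are described. RNA came from MIN6, an insulin-secreting mouse beta cell line, and each sample was hybridised to its own 1-colour Agilent array. The EXO-HP group (3 arrays) had received exosomes, small vesicles that cells release, from muscle of mice fed a high fat diet. The EXO-STD group (2 arrays) had received exosomes from muscle of mice fed a standard diet. In both groups the muscle was kept ex vivo while it released the vesicles, the vesicles were collected by ultracentrifugation, and the cells were of the one line. The sources used here do not give the strain, age and number of the mice or the vesicle dose and time. The sample titles speak of biological replicates without saying whether cultures or vesicle preparations were separate, so p-values cover the spread between these samples, which may be partly technical.

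The proteasome is the protease that degrades most proteins tagged with ubiquitin. Its barrel-shaped core (20S) is built of alpha rings, which gate entry, around beta rings, which hold the active sites. The cap (19S) binds ubiquitin chains, unfolds the substrate with a ring of ATPases and threads it into the core. Interferon induces Psmb8, Psmb9 and Psmb10, which take the places of the constitutive active sites Psmb5, Psmb6 and Psmb7 and shift the peptides made toward those presented on class I molecules. In beta cells the proteasome takes up misfolded secretory proteins that the endoplasmic reticulum returns to the cytosol.

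Values are log2 signals minus each array's 75th percentile, so 0 is the signal that 75% of an array's probes do not exceed. Levels of different probes are not comparable on this scale. Fold changes are differences of these log2 values, EXO-HP minus EXO-STD. Signal was well above background at 73.96%, 91.6% and 81.6% of the spots of the EXO-HP arrays, against 73.4% and 71.8% of those of the EXO-STD arrays, and no spot was saturated. Slide 1 held EXO-HP 1 and both EXO-STD arrays, and slide 2 held EXO-HP 2 and EXO-HP 3. All 14 beta cell markers, among them Ins1, Ins2 and Pdx1, were well above background on every array. Their summed levels were 1185 to 1285 in EXO-HP and 1065 to 1129 in EXO-STD in units of the 75th percentile. Such a sum follows the brightest probes of its list.

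No proteasome gene passed the test of EXO-HP against EXO-STD, and most fold changes were smaller than the differences between arrays of one group. Of the 48 genes, 46 were well above background on all 5 arrays and were tested with limma. None passed an adjusted p of 0.05 and none had an unadjusted p under 0.05. Over all 31945 probes tested, 0% passed the adjusted threshold and 5.65% had an unadjusted p under 0.05. The smallest adjusted p of a proteasome gene, 0.929, belonged to Psmb2.

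The means were lower in EXO-HP for 32 of the 46 genes and higher for 14, with a median log2 fold change of -0.07. Of all tested genes 61.7% had the higher mean in EXO-HP, and their median was 0.07. With each array scaled to its median in place of its 75th percentile, 42 of the 46 were lower and 4 higher. That scaling moved the median of all probes to -0.09, against 0.07, and the share of probes higher in EXO-HP to 36.6%, against 62.2%. Relative to the median of all probes, the proteasome genes lay at -0.14 under both scalings. The scalings differ by a constant per array and so cannot change this distance. With quantile normalisation the same distance was -0.03. It was 0.03 without EXO-STD 1 and -0.34 without EXO-STD 2. Without EXO-STD 1 the split turned to 34 higher and 12 lower, and without EXO-STD 2 it was 11 higher and 35 lower.

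The fold changes were small beside the differences within each group. The fold change of 34 of the 46 genes was smaller in size than the gap between the 2 EXO-STD arrays. That of 44 was smaller than the range over the 3 EXO-HP arrays. The same shares over all probes were not computed, so these counts do not set the proteasome genes apart. Standard errors lay between 0.18 and 0.47. The 95% intervals of 39 genes stayed within 1 log2 unit of 0, and over all 46 the bounds ran from -1.13 (Psmb10) to 1.34 (Psmb3). The groups did not overlap for 6 of the 46 genes (13.04%), against 17.7% of all tested probes. Psmb4 and Psmd11 were the 2 that lay wholly higher in EXO-HP (14.9% of all probes did). Psmb2, Psmc2, Psmc5 and Psmd4 were the 4 that lay wholly lower (2.83% of all probes did).

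**Figure D1:**
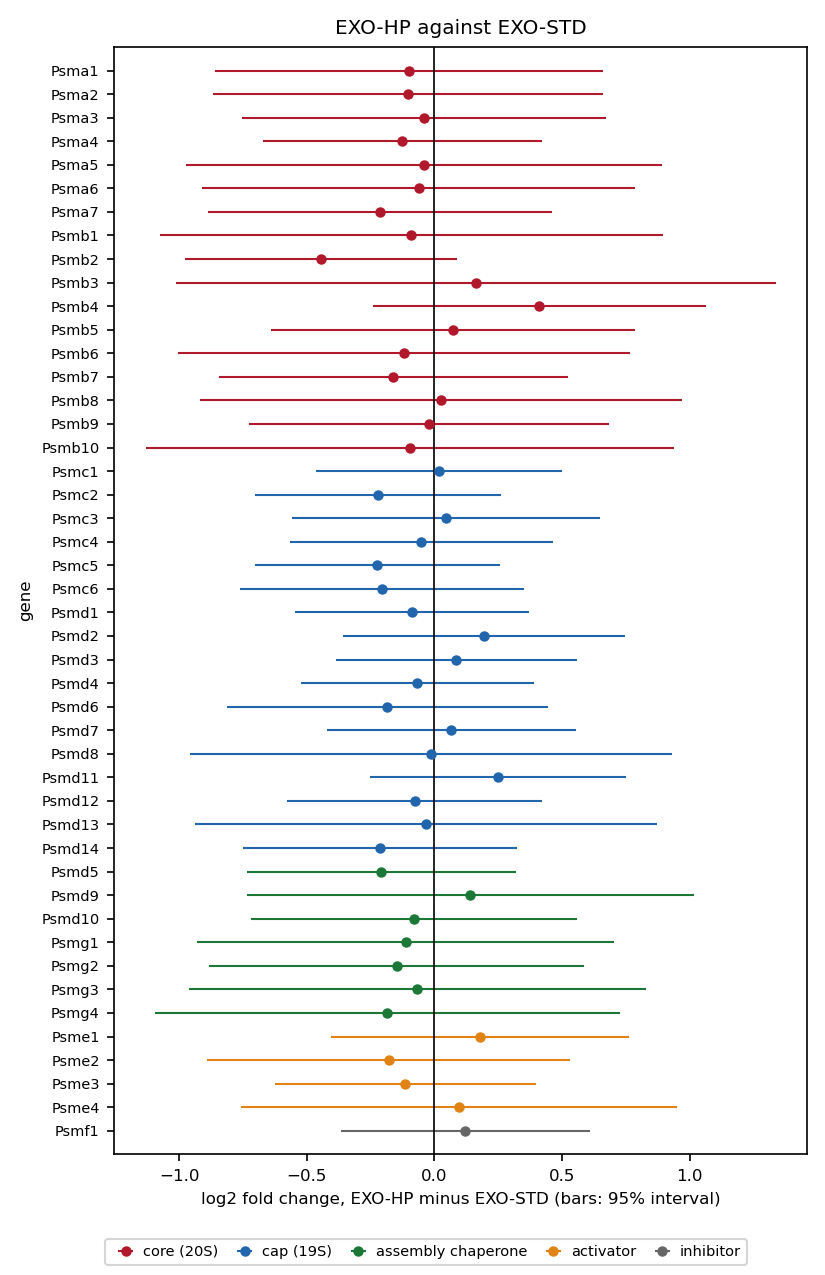
Log2 fold change of the 46 tested proteasome genes, EXO-HP (n = 3) minus EXO-STD (n = 2), one gene per line. Points are limma estimates and bars their 95% intervals, coloured by class. Every interval crosses 0, and the estimates run from -0.44 (Psmb2) to 0.41 (Psmb4).

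The 6 exchangeable active-site subunits of the core are the members on which the contrast of constitutive and immune proteasome turns, so the probes that read them are shown. Each is a probe of 60 bases, 5′ to 3′ in the sense of the transcript as the array table lists it. Positions follow the array design, on mm9. Exon positions were not looked up. The Psmb7 probe has an interval longer than the probe itself.
Psmb5: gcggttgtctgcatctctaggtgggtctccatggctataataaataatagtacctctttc
Psmb6: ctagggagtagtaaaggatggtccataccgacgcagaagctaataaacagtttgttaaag
Psmb7: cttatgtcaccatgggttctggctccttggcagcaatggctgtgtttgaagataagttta
Psmb8: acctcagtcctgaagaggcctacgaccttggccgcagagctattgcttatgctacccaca
Psmb9: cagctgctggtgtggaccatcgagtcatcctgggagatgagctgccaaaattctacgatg
Psmb10: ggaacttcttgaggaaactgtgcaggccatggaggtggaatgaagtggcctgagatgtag

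Among the constitutive active sites, Psmb5 (chymotrypsin-like) had normalised log2 signals of 5.29, 5.95 and 5.43 on the EXO-HP arrays, against 5.69 and 5.27 on the EXO-STD arrays. The groups overlapped, and the highest and the next highest values came from opposite groups. The fold change was 0.07 ± 0.29 (SE, adjusted p = 1 by limma), with a 95% interval of 0.642-fold to 1.73-fold. Its probe lies at chr14:55232957-55233016 on the minus strand, and a further Psmb5 probe gave a fold change of -0.01.

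Psmb6 (caspase-like), read at chr11:70341093-70341152, had log2 signals of 4.90, 5.41 and 4.88 in EXO-HP, against 5.66 and 4.71 in EXO-STD. All EXO-HP values fell between the EXO-STD pair. The fold change was -0.12 ± 0.36, with an interval of 0.498-fold to 1.70-fold. Psmb7 (trypsin-like), read at chr2:38468966-38489385, had 2.34, 2.48 and 2.10 in EXO-HP, against 2.79 and 2.14 in EXO-STD. The highest value was again EXO-STD 1, the groups overlapped, and the fold change was -0.16 ± 0.27. The 3 constitutive subunits had a median fold change of -0.12, with 1 higher and 2 lower, and with median scaling Psmb5 also lay lower, at -0.09.

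Of the immune subunits, Psmb8, which replaces Psmb5, had log2 signals of -1.52, -0.91 and -1.94 in EXO-HP, against -1.16 and -1.81 in EXO-STD. Its probe lies at chr17:34337771-34337830. EXO-HP held both the highest and the lowest value, and the fold change was 0.02 ± 0.38 with an interval of 0.528-fold to 1.96-fold. Psmb9, which replaces Psmb6 and was read at chr17:34319174-34319233, had -0.90, -0.30 and -0.91 in EXO-HP, against -0.48 and -0.88 in EXO-STD. EXO-HP 2 stood highest and the other EXO-HP arrays lowest, giving a fold change of -0.02 ± 0.28.

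Psmb10, which replaces Psmb7 and was read at chr8:108459677-108459736, had 0.33, 1.03 and 0.11 in EXO-HP, against 1.08 and 0.10 in EXO-STD. The EXO-STD pair enclosed the EXO-HP values. The fold change was -0.10 ± 0.42. The direction of Psmb8 and Psmb9 depended on the processing: with normexp they had -0.05 and 0.14, and with quantile normalisation -0.01 and -0.05. The immune subunits had a median fold change of -0.02 with 1 higher and 2 lower, beside -0.12 for the constitutive subunits, and the adjusted p of each of the 6 genes was 1 by limma. Without EXO-STD 1 the medians were 0.35 for the immune and 0.29 for the constitutive subunits, and without EXO-STD 2 they were -0.30 and -0.49. On the deposited values the immune median was -0.09 and the constitutive -0.06, and with slide as a block they were -0.21 and -0.19, so the order of the 2 medians turned. Slide 2 held no EXO-STD array, so a fit with slide as a block compares EXO-HP 1 alone with the EXO-STD arrays. Psmb11, the thymic counterpart of Psmb5, was well above background on 1 of 3 EXO-HP arrays and 0 of 2 EXO-STD arrays and was not tested.

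**Figure D2:**
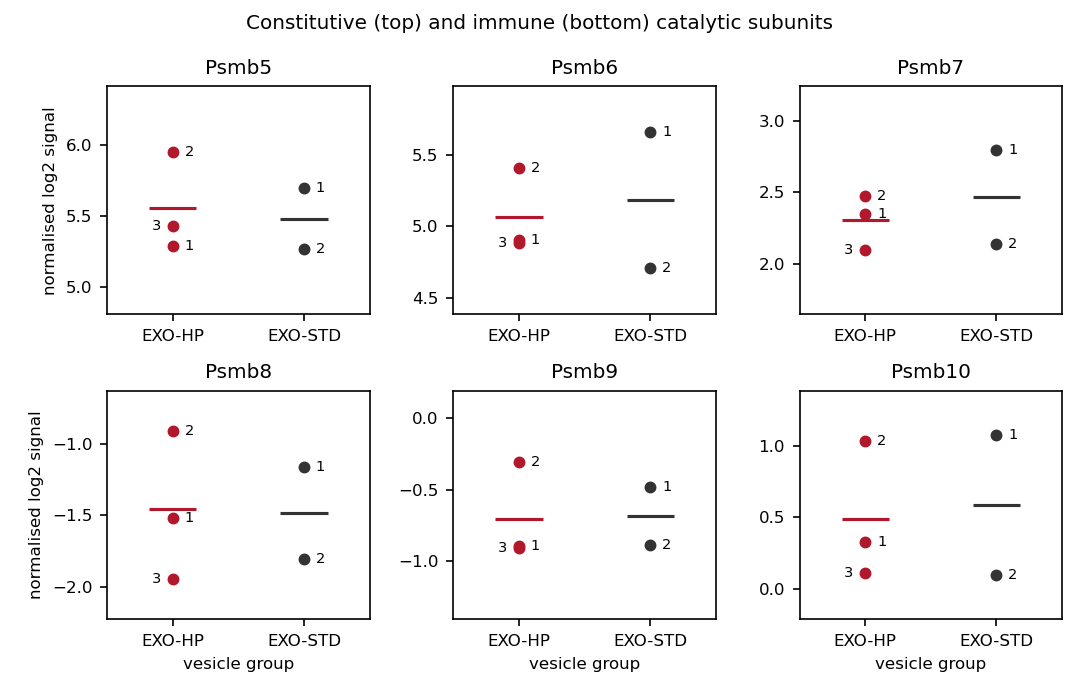
Normalised log2 signal of the constitutive (Psmb5, Psmb6, Psmb7) and immune (Psmb8, Psmb9, Psmb10) catalytic subunits on each array, EXO-HP left and EXO-STD right. Points are arrays numbered by replicate, bars are group means, and 0 is an array's 75th percentile. In every panel EXO-HP 2 is the highest EXO-HP array and EXO-STD 1 lies above EXO-STD 2.

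Markers of immune cells, which carry the immune subunits, were 10 of 10 well above background on all arrays and 10 of 10 higher in mean in EXO-HP, with a median fold change of 0.18. Their summed level was 11.4 to 17.3 in EXO-HP and 12.2 to 12.3 in EXO-STD. Most of that sum was the Itgam probe, which averaged 3.36 in EXO-HP and 3.25 in EXO-STD on the log2 scale. Levels of different probes are not comparable, so such sums follow the brightest probes and do not measure amounts of cells. Ptprc, the pan-leukocyte phosphatase, had -4.60, -4.21 and -4.43 in EXO-HP, against -5.05 and -4.89 in EXO-STD, without overlap, at an adjusted p of 0.882 by limma. Of 10 markers of skeletal muscle, the source of the vesicles, 6 were well above background on all arrays. All 9 tested were higher in mean in EXO-HP. Mylpf, Ckm and Mb passed the filter only through the EXO-HP arrays, where they were higher, so that count was partly set by the filter. The summed levels were 1.11 to 1.71 in EXO-HP and 0.814 to 1.02 in EXO-STD. Of the 7 fibroblast markers 3 were well above background on all arrays. Of these markers 4 of 5 tested were higher, with sums of 0.168 to 0.343 in EXO-HP and 0.167 to 0.177 in EXO-STD. Among all tested genes 61.7% had the higher mean in EXO-HP. Of the endothelial markers 1 of 3 was higher, with sums of 3.25 to 5.26 in EXO-HP and 2.51 to 4.21 in EXO-STD. The part of these markers in the proteasome values was not tested. In RNA of a whole culture, a change in cell number and a change in RNA per cell cannot be told apart.

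In the alpha ring every tested member had a lower mean in EXO-HP, none passed the test, and Psma3 turned to 0.03 with normexp, 0.01 with quantile normalisation and 0.07 on the authors' deposited values. The 7 tested genes, Psma1 to Psma7, had fold changes between -0.21 (Psma7) and -0.04 (Psma3), with a median of -0.10. Their direction changed with single arrays: without EXO-STD 1, 6 of the 7 were higher in EXO-HP (Psma5 at 0.33), and without EXO-HP 3, 5 of the 7 were higher. Psma7 had log2 signals of 4.29, 4.78 and 4.31 in EXO-HP, against 4.92 and 4.42 in EXO-STD, so EXO-HP 2 lay inside the EXO-STD pair and the other EXO-HP arrays below it. Psma3 had 4.29, 4.93 and 4.31 in EXO-HP, against 4.73 and 4.37 in EXO-STD. EXO-HP 2 was highest there and the other EXO-HP arrays were lowest, and the groups of both genes overlapped. Psma8, the testis form of Psma7, was well above background on 1 of 3 EXO-HP arrays and 0 of 2 EXO-STD arrays and was not tested.

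The structural beta subunits, which have no active site, held both extremes of the family. Psmb2 had log2 signals of 0.19, -0.05 and 0.22 in EXO-HP, against 0.72 and 0.41 in EXO-STD. All 3 EXO-HP arrays lay below both EXO-STD arrays, and the fold change was -0.44 ± 0.21 (SE), with a 95% interval of -0.98 to 0.09 and an adjusted p of 0.929 by limma. Its fold change stayed below 0 under every alternative, between -0.61 with median scaling and -0.29 without EXO-STD 1. Psmb4 had 4.62, 5.28 and 4.77 in EXO-HP, against 4.43 and 4.53 in EXO-STD. The EXO-HP arrays all lay above the EXO-STD arrays, with a fold change of 0.41 ± 0.26, an interval of -0.24 to 1.06 and an adjusted p of 1. That fold change was 0.25 with median scaling, 0.22 without EXO-HP 2 and 0.14 with slide as a block. Psmb3 and Psmb1, named after their values were seen, had the widest ranges over the EXO-HP arrays in the family, 1.26 and 1.07.

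In the cap, the ATPases that unfold the substrate had 2 higher and 4 lower of 6, with a median of -0.13. Psmc5 had log2 signals of 3.1, 2.93 and 2.87 in EXO-HP, against 3.21 and 3.17 in EXO-STD. The groups did not overlap, and the difference of -0.22 ± 0.19 had an adjusted p of 1 by limma. Psmc2, named after its values were seen, likewise lay wholly lower, with 4.50, 4.72 and 4.54 in EXO-HP, against 4.84 and 4.77 in EXO-STD. Psmc3 was the ATPase with the highest fold change, 0.05 ± 0.24 (-0.12 with median scaling), with 5.14, 5.5 and 5.14 in EXO-HP, against 5.43 and 5.0 in EXO-STD. Its groups overlapped.

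The 11 cap subunits without ATPase activity, which include the lid, the scaffold and a ubiquitin receptor, had 4 higher and 7 lower with a median of -0.03. Psmd11, a lid subunit, had 1.03, 1.17 and 1.31 in EXO-HP, against 0.83 and 1.01 in EXO-STD. The groups were separated by a narrow margin, and the fold change was 0.25 ± 0.20 with an adjusted p of 1. Psmd14, the lid enzyme that removes ubiquitin chains, had 1.82, 1.55 and 1.41 in EXO-HP, against 1.78 and 1.83 in EXO-STD, a difference of -0.21 ± 0.22 with overlapping groups. Psmd4, a ubiquitin receptor, named after its values were seen, had the narrowest EXO-HP range and EXO-STD gap of the 46 genes. It had 4.17, 4.17 and 4.25 in EXO-HP, against 4.27 and 4.26 in EXO-STD, without overlap, and a fold change of -0.07 ± 0.18.

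The assembly chaperones, which build the core (Psmg1 to Psmg4) and the base of the cap (Psmd5, Psmd9, Psmd10), had 1 higher and 6 lower of 7, with a median of -0.11. Psmd9 had log2 signals of -0.11, 0.54 and -0.24 in EXO-HP, against 0.29 and -0.44 in EXO-STD, and a fold change of 0.14 ± 0.35. Psmd5 had 0.65, 0.69 and 0.51 in EXO-HP, against 1.01 and 0.64 in EXO-STD, and a fold change of -0.21 ± 0.21. The groups of both genes overlapped.

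The activators bind the ends of the core in place of the cap. Psme1 and Psme2, which interferon induces and which together form the PA28 ring, had fold changes of 0.18 ± 0.23 and -0.18 ± 0.29. Psme1 had 2.26, 2.78 and 2.52 in EXO-HP, against 2.43 and 2.26 in EXO-STD. Psme2 had 4.06, 4.73 and 4.31 in EXO-HP, against 4.77 and 4.32 in EXO-STD. In both genes EXO-HP 1 was the lowest of the EXO-HP arrays and EXO-HP 2 the highest, and the groups overlapped. Psme1 was spotted 10 times on each array, with an SD over spots of 0.036 to 0.096, so its 0.52 difference between EXO-HP 2 and EXO-HP 1 was larger than the spread between spots.

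Psme3, the nuclear activator, had -0.34, -0.55 and -0.66 in EXO-HP, against -0.33 and -0.47 in EXO-STD, with a fold change of -0.11 ± 0.21. Psme4, a large single-chain activator, had 0.72, 0.18 and 0.93 in EXO-HP, against 0.15 and 0.89 in EXO-STD, with a fold change of 0.10 ± 0.34. Its low arrays, EXO-HP 2 and EXO-STD 1, were the ones on which most core genes were high. The inhibitor Psmf1 had -0.79, -0.84 and -0.96 in EXO-HP, against -0.88 and -1.10 in EXO-STD, with a fold change of 0.12 ± 0.20 (-0.04 with median scaling). The groups of these 3 genes overlapped.

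The median fold change was below 0 in both core and cap. The core had 4 higher and 13 lower of the 17 tested of 19 genes, with a median of -0.09. The cap had 6 higher and 11 lower of 17, with a median of -0.05. The 2 classes were set side by side as descriptions, and their difference was not tested. Within slide 1 alone, EXO-HP 1 minus the EXO-STD mean had a median of -0.25 in the core and -0.07 in the cap. The fit with slide as a block gives these same values. The core median changed sign with single arrays, at 0.24 without EXO-STD 1 and 0.08 without EXO-HP 3, against -0.39 without EXO-STD 2 and -0.27 without EXO-HP 2. The cap median was 0.04 without EXO-STD 1 and between -0.12 and -0.04 without each of the other arrays.

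Core and cap lay farther apart in the spread between arrays of one group than in their median fold changes, as a description without a test. The median core gene stood -0.25, 0.38 and -0.34 from its EXO-STD mean on EXO-HP 1, 2 and 3, and 0.29 and -0.29 from it on EXO-STD 1 and 2. For the median cap gene the same values were -0.07, -0.06 and -0.07 in EXO-HP, and 0.02 and -0.02 in EXO-STD. The median range over the EXO-HP arrays was 0.65 in the core and 0.27 in the cap, and the median gap between the EXO-STD arrays was 0.57 and 0.08.

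EXO-HP 2 was the highest EXO-HP array for 15 of 17 core genes, 7 of 7 assembly chaperones and 5 of 17 cap genes, beside 15499 of all 31945 probes. EXO-STD 1 exceeded EXO-STD 2 for 15 of 17 core genes, 7 of 7 chaperones and 13 of 17 cap genes, beside 16093 of all probes. The exceptions in the core, named after their values were seen, were Psma4 on both counts, Psmb2 in EXO-HP and Psmb4 in EXO-STD. Psmd8, a lid subunit also chosen after its values were seen, had 1.62, 2.44 and 1.65 in EXO-HP, against 2.31 and 1.52 in EXO-STD, which is the pattern of the core.

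**Figure D3:**
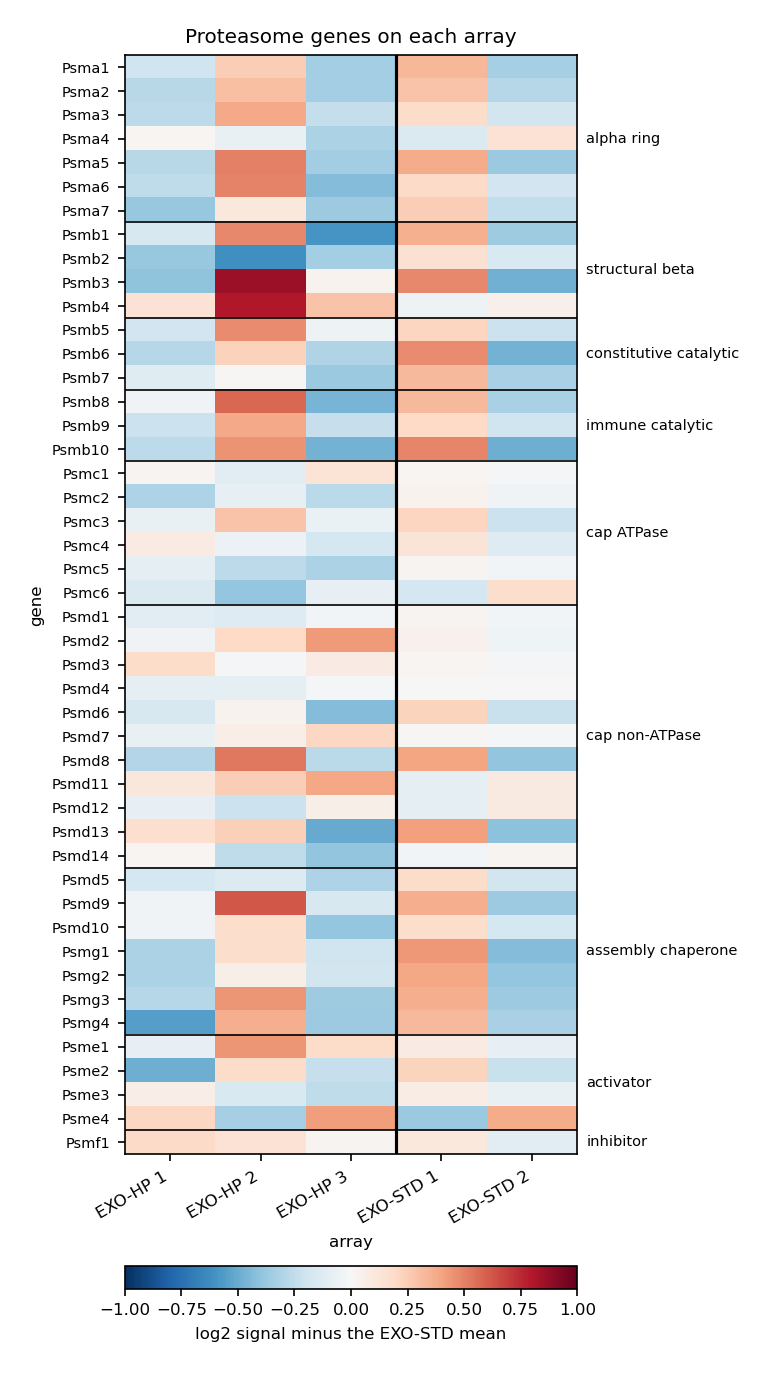
Log2 signal of each tested proteasome gene on each array minus that gene's EXO-STD mean, with EXO-HP arrays left of the line and EXO-STD arrays right of it, and genes grouped by role. Red is above and blue below the EXO-STD mean. Most rows of the alpha ring, the beta rings and the chaperones are red on EXO-HP 2 and EXO-STD 1 and blue on the other arrays, and most cap rows are pale.

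The 2 differences within groups went together across genes. EXO-HP 2 minus EXO-HP 3 and EXO-STD 1 minus EXO-STD 2, which share no array, had a Pearson r of 0.80 and a Spearman rho of 0.78 over the 46 genes. Over 19277 probes for RefSeq messenger RNAs well above background on all arrays, the same r was 0.42 and rho 0.56. These are correlations across genes of the same 5 arrays, and genes are not independent replicates.

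**Figure D4:**
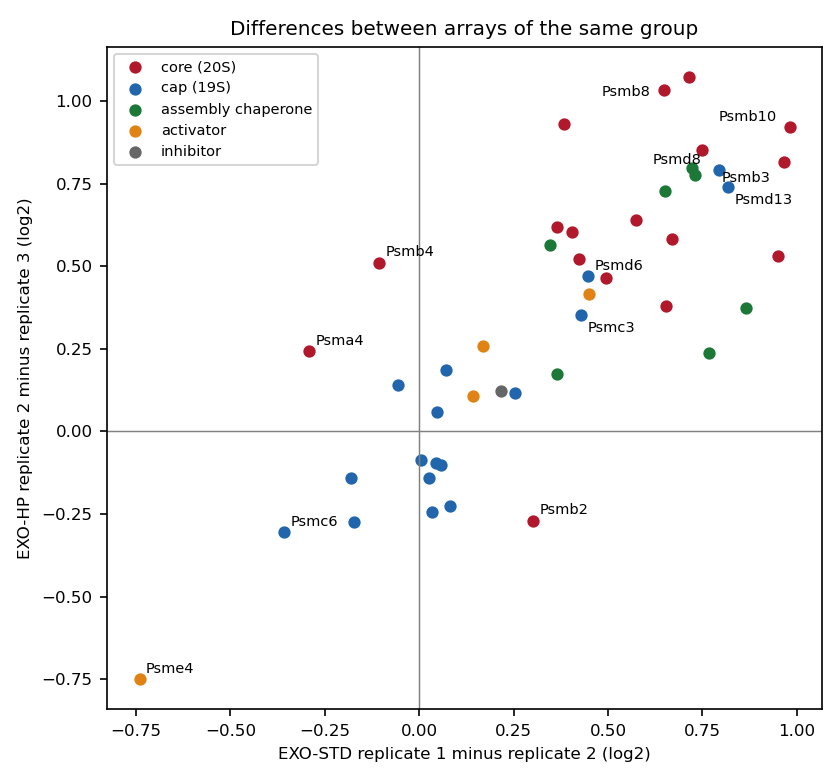
Difference between arrays of one group for each tested proteasome gene, EXO-HP 2 minus EXO-HP 3 on the vertical axis and EXO-STD 1 minus EXO-STD 2 on the horizontal axis (log2). Points are genes coloured by class. Core genes and chaperones lie mostly at the upper right, many cap genes lie near 0, and Psme4 is alone at the lower left with -0.74 and -0.75.

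The position of a probe in its transcript moved with the same differences. The median probe started at base 753 of the transcript in the core, 701 in the chaperones and 1335 in the cap, as the array table gives it. Of the activators, Psme4 was read farthest in, at base 4962. Over the 19277 probes, the gap between EXO-STD 1 and EXO-STD 2 had a Spearman rho of -0.39 with probe start, and the gap between EXO-HP 2 and EXO-HP 3 one of -0.47. Among those above the 75th percentile, the median EXO-STD gap was 0.62 for the 599 probes that start before base 500 and -0.18 for the 2210 that start at base 3000 or later.

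Across the 46 proteasome genes the EXO-STD gap had a Pearson r of -0.51 and a rho of -0.35 with probe start. Within the 17 core genes r was 0.35, and within the 17 cap genes it was -0.17. For EXO-HP 2 minus EXO-HP 3, r with probe start was -0.61 over the 46 genes, 0.30 within the core and -0.40 within the cap. The part of probe position in the difference between core and cap was not tested.

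**Figure D5:**
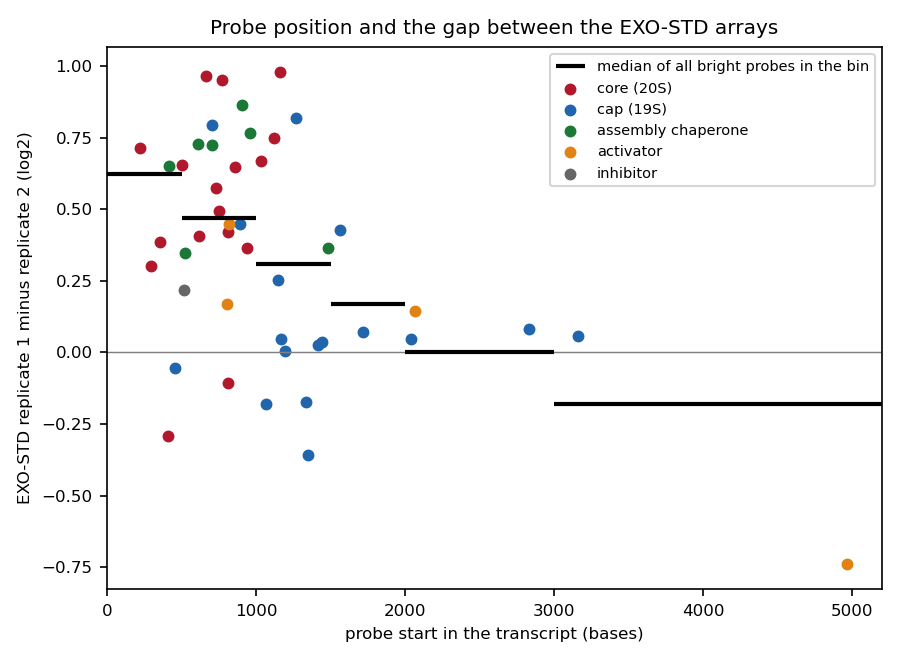
EXO-STD 1 minus EXO-STD 2 (log2) of each tested proteasome gene against the base of the transcript at which its probe starts. Points are genes coloured by class, and black lines are medians of all RefSeq messenger RNA probes above the 75th percentile in each range of starts, the last of which runs on past the axis. The medians step down from 0.62 to -0.18, and the core genes lie mostly at early starts.

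Further probes existed for 11 of the genes. Psme4 kept its opposite pattern on a probe that starts at base 1428, with an EXO-STD gap of -0.55 beside -0.74 on the brighter probe. Psmd9 and Psmg1 also kept theirs, with gaps of 0.48 and 0.63 beside 0.73 and 0.86. Psma4 did not: its brighter probe had an EXO-STD gap of -0.29 and a fold change of -0.13, and its other probe 0.77 and 0.30. A Psme2 probe that the array design places on chromosome 11, and not with the gene on chromosome 14, does not stand for Psme2. With the mean over all Psme2 probes, which takes it in, the fold change of Psme2 was 0.11 in place of -0.18.

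The promoters of 3 core genes are shown to compare a constitutive subunit, its immune counterpart and the core gene with the widest EXO-HP range, each as the window of 300 bases from 250 before to 50 after the gene's start. They come from RefSeq on GRCm38.p6, where 40 of the 48 genes matched. Capitals mark matches, on either strand, to CCAAT (the CCAAT box, bound by NF-Y), TGACNNNGC (the core of the antioxidant response element, used by Nfe2l1 and Nfe2l2), GAAANNGAAA (the interferon-stimulated response element core) and TTCNNNGAA (the gamma-activated site). Psmb3, with that range, is at chr11:97703184-97703483 on the plus strand. Psmb5, the constitutive site, is at chr14:54617946-54618245 on the minus strand, and Psmb8, its immune counterpart, is at chr17:34197945-34198244 on the plus strand.
Psmb3: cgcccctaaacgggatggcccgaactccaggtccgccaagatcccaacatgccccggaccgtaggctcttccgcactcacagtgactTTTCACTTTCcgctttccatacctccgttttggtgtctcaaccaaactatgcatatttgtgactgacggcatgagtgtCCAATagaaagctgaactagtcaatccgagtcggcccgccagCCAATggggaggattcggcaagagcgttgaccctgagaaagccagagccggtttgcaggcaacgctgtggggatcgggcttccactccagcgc
Psmb5: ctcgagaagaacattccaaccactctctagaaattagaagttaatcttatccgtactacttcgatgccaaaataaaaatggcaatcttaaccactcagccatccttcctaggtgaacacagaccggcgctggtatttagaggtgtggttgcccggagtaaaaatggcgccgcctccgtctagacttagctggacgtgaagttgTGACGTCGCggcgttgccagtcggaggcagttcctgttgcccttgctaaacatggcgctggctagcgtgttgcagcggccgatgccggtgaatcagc
Psmb8: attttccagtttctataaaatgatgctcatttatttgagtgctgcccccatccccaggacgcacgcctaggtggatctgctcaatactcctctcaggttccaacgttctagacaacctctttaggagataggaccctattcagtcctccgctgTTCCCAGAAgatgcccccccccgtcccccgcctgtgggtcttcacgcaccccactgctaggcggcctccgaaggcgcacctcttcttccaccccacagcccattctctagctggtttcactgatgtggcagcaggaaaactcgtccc

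In Psmb3 the capitals are the CCAAT box at bases 166 to 170 and 208 to 212 and the interferon element on the reverse strand at bases 88 to 97. Psmb5 held the antioxidant element at bases 204 to 212, and Psmb8 held the gamma-activated site at bases 154 to 162. CCAAT was found in 14 of 43 proteasome promoters (32.6%), in 50% of the 16 core promoters and in 26.7% of the 15 cap promoters, beside 37.4% of 32851 promoters of all genes. The antioxidant element was in 13.95% of the proteasome promoters beside 12.4% of all. The interferon element was in 11.6%, beside 3.44%, and the gamma-activated site in 6.98%, beside 8.30%. The 5 promoters with the interferon element were those of Psmb3, Psmd4, Psmd9, Psme1 and Psmg4, and 0 of the 3 immune subunit promoters held it. These are matches of letters and the shares were not tested.

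Genes that work with the proteasome did not pass the test either. Of 12 partners of the complex, 3 were higher and 9 lower in EXO-HP, with a median of -0.06. Pomp, which matures the core, had log2 signals of 2.80, 3.40 and 2.77 in EXO-HP, against 3.24 and 2.79 in EXO-STD, and so was high on the same arrays as most core genes. Ube3c, a ubiquitin ligase at the proteasome, lay wholly lower with a fold change of -0.29 ± 0.20 and an adjusted p of 1 by limma, and Ecpas, a scaffold of the complex, had 0.24. The 9 shuttles and segregase genes, which carry substrates to the cap, had 4 higher and 5 lower with a median of 0.00. Nploc4, a cofactor of the segregase Vcp, lay wholly higher with 0.32 ± 0.22.

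Of 7 genes in the transcription of proteasome genes, 3 were higher and 4 lower, with a median of -0.02. Mafg, a small Maf partner of Nfe2l1 and Nfe2l2, had 3.41, 3.31 and 3.68 in EXO-HP, against 2.62 and 3.17 in EXO-STD. All EXO-HP arrays lay above both EXO-STD arrays, and the fold change of 0.57 ± 0.26 had an adjusted p of 0.917. Nfe2l1, which induces proteasome genes when the proteasome is inhibited, had a fold change of -0.03 ± 0.23, and Nfe2l2, which does so under oxidative stress, had -0.21 ± 0.20. Of 5 tested genes of ubiquitin supply, 3 were higher and 2 lower, with 0.06 for Ubb, a ubiquitin gene.

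Of 14 genes of class I antigen processing and interferon response, 10 were higher and 4 lower, with a median of 0.10. B2m, the light chain of class I, had log2 signals of 0.74, 1.11 and 0.53 in EXO-HP, against 1.41 and 0.86 in EXO-STD, a difference of -0.34 ± 0.28 with overlapping groups. Tap1, a peptide transporter gene that lies between Psmb9 and Psmb8 on chromosome 17, had -3.29, -3.51 and -3.63 in EXO-HP, against -3.61 and -3.79 in EXO-STD. Its groups overlapped, and the fold change was 0.23 ± 0.21, beside 0.02 for Psmb8 and -0.02 for Psmb9. None of the genes in these 5 lists had an unadjusted p under 0.05, against 5.65% of all probes.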

How the data were processed

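RNA of 5 MIN6 samples was measured on 1-colour arrays. The deposited scanner tables hold spot intensity after background subtraction and detrending, per the file headers, which name Feature Extraction 10.7.3.1, while the submitters' processing notes name version 9.1 and limma. The authors' deposited value table holds log2 values whose columns share a median of 7.93, with array ranks equal to mean minus background signal (rho = 1). Scale and direction were read from that match, and 0 columns were unmatched.

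The processed signal was put on the log2 scale without outlier spots, averaged over the spots of a probe and centred on each array's 75th percentile. Probes without a usable spot (110) or bright enough on fewer than 2 arrays of either group (7374) were left out. The remaining 31945 probes were fitted with limma 3.58.1 in R 4.3.3 (EXO-HP minus EXO-STD, no covariates, 3 residual and 2.61 prior degrees of freedom), two-sided, with Benjamini-Hochberg adjustment at 0.05. With 3 and 2 arrays the smallest two-sided p of an exact permutation test is 0.2. The number of arrays limits the precision. Positions are on mm9, per the file headers, and all arrays were scanned on 1 day.

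Genes given per array by rule are the 6 catalytic subunits, Psme1 to Psme4, Psmf1 and the highest and lowest fold change in each other role. In each further list they are the 2 smallest p. Psmc2, Psmd4 and Psmd8 were added after their values were seen. Members and lists were chosen with earlier results of these data known. Replicate numbers were checked as pairs: deviations of the same-numbered arrays correlated at 0.02 (number 1) and -0.06 (number 2) over probes. The deviations of 2 EXO-STD arrays from their mean mirror each other, so this check can hardly show or exclude pairing. The samples were not treated as paired in the main fit. The 14 alternatives covered background correction, scaling, the deposited values, dim probes, slide, replicate number, probe choice and leaving out each array. Ddi2 and Paaf1 were not analysed here, and Uba1 lacked a usable spot on 1 array. Some genes of the lists are not reported here by name.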

Additional observations from a re-analysis of the deposited data

How the results depend on the processing

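Of the 14 alternatives, none that kept both EXO-STD arrays had a proteasome gene past an adjusted p of 0.05. The fits with a lone EXO-STD array were read for fold changes only, so no calls are given for them. Psmb2 alone of the 46 genes reached an unadjusted p under 0.05 by limma, at 0.033 with normexp, 0.047 with median scaling and 0.040 on the deposited values. The shares of all probes under 0.05 in these settings were 3.32%, 4.03% and 1.98%. The cap median of -0.05 became -0.064 with normexp, -0.020 with quantile normalisation, -0.22 with median scaling, -0.037 on the deposited values and -0.074 with slide as a block. With median scaling the core median was -0.25, the constitutive -0.28 and the immune -0.19, and with slide as a block they were -0.25, -0.19 and -0.21. The slide block rests on EXO-HP 1 alone in its group. With the replicate block, which drops EXO-HP 3 because no EXO-STD array bears its number, the cap median was -0.041 and the core median 0.08. Leaving out 1 array in turn gave -0.12 to 0.04 for the cap, -0.39 to 0.24 for the core, -0.49 to 0.29 for the constitutive and -0.30 to 0.35 for the immune subunits, with the extremes without EXO-STD 2 and EXO-STD 1. A lone remaining EXO-STD array is assumed to vary like the others. Psma8 and Psmb11 were too dim for a fold change.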
